A study of Mus musculus with 2 samples.

Results

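The guide arms of the miR-17-92 and miR-106b-25 clusters were examined in unwounded mouse skin and unwounded oral mucosa. A guide arm is the strand of a microRNA hairpin that is usually kept. The 9 guide arms were taken by name from the 1892 mouse microRNAs that had a probe on the arrays. They were mmu-miR-17-5p, mmu-miR-18a-5p, mmu-miR-19a-3p, mmu-miR-19b-3p, mmu-miR-20a-5p and mmu-miR-92a-3p of the first cluster, and mmu-miR-106b-5p, mmu-miR-93-5p and mmu-miR-25-3p of the second. The prefix mmu, for mouse, is left out below. The study compared the tissues because wounds of the oral mucosa close faster than wounds of the skin. Per the study's methods, matched skin and oral mucosa were taken from young adult female Balb/c mice, here without a wound. Each tissue was measured on 1 single-colour (Cy5) array loaded with 2 µg of total RNA, a pool of 3 animals. There was thus 1 pool per tissue, the spread between animals was not measured, and no test between the tissues was possible. The study's text names epithelium as the material of the arrays while its methods speak only of skin and oral mucosal samples, and how any epithelium was separated is not given in the sources used here.

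Both clusters are polycistrons, in which several microRNAs are cut from a single primary transcript. They are known for their high expression in proliferating cells, for their activation by MYC and E2F transcription factors, and, in the case of miR-17-92, as an oncogene. A microRNA finds its targets mainly through its seed, bases 2 to 8 from the 5′ end, so members of different clusters that share a seed are expected to share many targets. The miR-17 seed is known to repress the cell cycle inhibitor Cdkn1a, and the miR-92 seed the cell death gene Bcl2l11.

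In GRCm38.p6, the mouse build of the RefSeq tables from which the sequences were taken, the 6 hairpins of miR-17-92 lay within 836 bases at chr14:115043671-115044506 on the plus strand. Of these, 1 hairpin, that of miR-92a-1, lay inside the span annotated for Mir17hg, the noncoding host gene of the cluster. The 3 hairpins of miR-106b-25 lay within 498 bases at chr5:138165321-138165818 on the minus strand, inside Mcm7, which codes for a subunit of the replicative DNA helicase. Another cluster of like sequence, miR-106a-363, held 6 hairpins at chrX:52741693-52742567 on the minus strand. MiR-19b-3p and miR-92a-3p are each made both on chromosome 14 and on chromosome X, and a probe cannot tell the copies apart. The mature sequences are shown by seed group, because the tissue differences are read by seed group below and a probe may also bind a close relative. The seed is in capitals, and the positions are those of the mature arm. The miR-17 seed group held 4 of the 9 guide arms, and miR-106a-5p and miR-20b-5p of the X-linked cluster have the same seed.
mmu-miR-17-5p: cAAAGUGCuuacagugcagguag, chr14:115043684-115043706, plus strand.
mmu-miR-20a-5p: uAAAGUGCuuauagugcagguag, chr14:115044183-115044205, plus strand.
mmu-miR-106b-5p: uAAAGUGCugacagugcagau, chr5:138165787-138165807, minus strand.
mmu-miR-93-5p: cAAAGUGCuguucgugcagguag, chr5:138165574-138165596, minus strand.
mmu-miR-106a-5p: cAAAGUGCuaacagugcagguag, chrX:52742541-52742563, minus strand.
mmu-miR-20b-5p: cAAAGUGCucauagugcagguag, chrX:52742159-52742181, minus strand.

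The miR-18 seed was carried by 1 member and its X-linked relative.
mmu-miR-18a-5p: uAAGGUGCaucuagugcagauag, chr14:115043867-115043889, plus strand.
mmu-miR-18b-5p: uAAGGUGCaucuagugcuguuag, chrX:52742381-52742403, minus strand.

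The miR-19 seed was carried by 2 members.
mmu-miR-19a-3p: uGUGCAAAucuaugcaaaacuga, chr14:115044048-115044070, plus strand.
mmu-miR-19b-3p: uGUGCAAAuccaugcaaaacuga, chr14:115044358-115044380, plus strand and chrX:52741991-52742013, minus strand.

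The miR-92 seed was carried by 2 members, by miR-363-3p of the X-linked cluster and by miR-92b-3p, which has a hairpin of its own.
mmu-miR-92a-3p: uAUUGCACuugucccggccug, chr14:115044476-115044496, plus strand and chrX:52741854-52741874, minus strand.
mmu-miR-25-3p: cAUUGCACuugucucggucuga, chr5:138165332-138165353, minus strand.
mmu-miR-92b-3p: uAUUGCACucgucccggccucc, chr3:89227126-89227147, minus strand.
mmu-miR-363-3p: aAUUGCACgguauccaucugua, chrX:52741697-52741718, minus strand.

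Each probe lay on 2 repeat spots per array, and the authors deposited the median brightness of each spot in scanner units with no background taken away. The detection limit of an array was the mean of its 16 empty spots plus 3 SD, that is 59.9 units for skin and 71.8 for the oral mucosa array, and a probe counted as detected where its spots averaged more than this. Both arrays detected 394 probes, and at least 1 array detected 562. Differences are given as oral mucosa minus skin after Variance Stabilizing Normalization (VSN), on a scale that runs parallel to log2 for bright spots. A probe was called different when this value was at least 1 in size, a 2-fold change. The SD given with each difference is the root of the summed squares of the repeat-spot SDs of the 2 arrays, and covers technical error within the arrays alone. It is built from the SDs of single spots, so it is wider than the technical error of a difference between spot means. For a probe detected on 1 array only, it covers that array alone. All 7 epithelial markers, the miR-200 family with miR-203-3p and miR-205-5p, were detected on both arrays. As both tissues have an epithelium, this does not tell the labels apart. Single markers differed both ways, from -1.22 (SD 0.46) for miR-200c-3p to 1.12 (SD 0.89) for miR-429-3p, whose skin spots lay far apart at 371 and 833.

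Most guide arms were detected on both arrays, and with VSN no detected member differed by 2-fold between the arrays. Both arrays detected 8 of the 9, or 88.9%, against 20.8% of all probes, and neither detected miR-19a-3p. Of the 8, 0 passed the 2-fold rule, while 28.5% of the 562 detected probes did, 13.7% with higher signal in oral mucosa and 14.8% with higher signal in skin. Among the 227 probes detected on both arrays whose mean VSN value lay within the range of the members, 26.0% passed. The share over all detected probes depended on the normalization. It was 15.1% with VSN fitted from a single start and between 14.2% and 18.1% with plain scaling, quantile normalization, the authors' processed values or no scaling, so that 0 of 8 is a smaller departure from it than VSN alone gives. The differences of the 8 ran from -0.94 to 0.19 with a median of -0.11. The median was 0.00 over all detected probes and -0.06 over those detected on both arrays, as the 8 were. Their median size was 0.16, against 0.50 over the probes detected on both arrays and 0.51 over those in the members' range of signal. Not every member was below these medians, as miR-19b-3p (-0.94), miR-25-3p (-0.54) and miR-92a-3p (-0.53) were larger in size. The median sizes too depended on the processing. They were 0.25 for the members and 0.37 for the probes detected on both arrays with VSN from a single start, 0.23 and 0.36 with quantile normalization and 0.38 and 0.52 with no scaling. The members had the smaller median in each of the 15 settings, the reported one included. Because the members were few and were chosen by name, these shares describe the 2 arrays and are not a test.

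**Figure D1:**
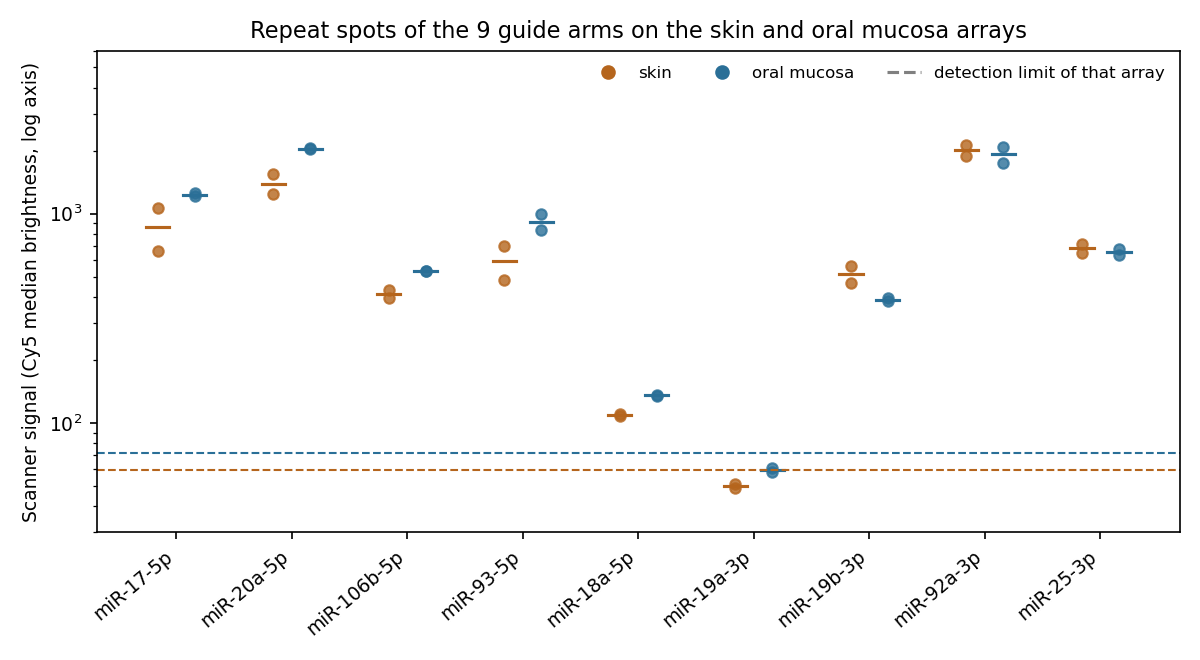
Scanner signal of each repeat spot (points, log axis) and the mean of the pair (bars) for the 9 guide arms on the skin and oral mucosa arrays, with the detection limit of each array as a dashed line. For 8 guide arms every spot lies above its limit, and for miR-19a-3p every spot lies below.

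The 4 detected arms with the miR-17 seed, 2 from each cluster, gave differences close to 0. MiR-17-5p, which gives the family its name, read 665 and 1069 on the skin spots and 1257 and 1209 on the oral mucosa spots. The oral mucosa spots were both brighter in scanner units, but after normalization the pairs overlapped, and the difference was 0.06 (SD 0.51). The dimmer skin spot lay in column 2, near the edge of the array and with columns 1 and 2 left out on both arrays the difference was -0.27. The direction for miR-17-5p thus rested on 1 spot. MiR-20a-5p, which differs from miR-17-5p by 2 substitutions, C1U and C12U (the base of miR-17-5p first, positions counted from the 5′ end), read 1545 and 1235 in skin and 2039 and 2048 in oral mucosa. Its normalized spots overlapped too, with a difference of 0.11 (SD 0.23).

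The miR-106b-25 cluster gave its pair of miR-17 seed arms values of the same size. MiR-106b-5p read 432 and 396 in skin and 529 and 532 in oral mucosa, and differed by -0.09 (SD 0.10). The scanner signal was thus higher in oral mucosa while the normalized value was slightly higher in skin, and the sign of so small a value depends on the scaling between the arrays. MiR-93-5p read 704 and 480 in skin and 1000 and 834 in oral mucosa, and its value of 0.19 (SD 0.46) was the highest of the 8. Its skin spots lay far apart and overlapped those of oral mucosa after normalization. The median over the 4 arms was 0.08, and each lay within 1 SD of 0. It stayed above 0 in the 14 alternative processings, from 0.04 to 0.53, although miR-17-5p, miR-20a-5p and miR-106b-5p each fell on either side of 0 among them.

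MiR-18a-5p, the member between miR-17 and miR-19a on chromosome 14, is known to target Smad and connective tissue growth factor transcripts in the TGF-β pathway. It read 110 and 109 in skin and 135 and 136 in oral mucosa, not far above the detection limits. Its repeat spots lay close together and the difference was -0.14 (SD 0.03). The normalized spots of the tissues did not overlap, but 3 of the 14 alternative processings put the value above 0, up to 0.31 with no scaling between the arrays.

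The miR-19 seed arms, the part of the cluster best known for its oncogenic action, gave the largest difference. MiR-19b-3p read 565 and 468 on the skin spots and 381 and 397 on the oral mucosa spots. Every skin spot was brighter than every oral mucosa spot, in scanner units as well as after normalization. The difference was -0.94 (SD 0.21), or 0.521 times the skin level on this scale, within its SD of the 2-fold rule. Of the probes detected on both arrays, 70.6% had a difference of smaller size. MiR-19b-3p was below 0 in all 14 alternatives, from -1.08 with the first repeat spot alone, where it passed the rule, to -0.41 with no scaling. MiR-19a-3p, which differs from it by the single substitution U11C (the base of miR-19a-3p first), read 51.4 and 48.7 in skin and 58.3 and 60.9 in oral mucosa, under the limit on both arrays. No difference was calculated for it. The probe of miR-19a-3p thus stayed under the limit in pools in which that of miR-19b-3p, apart by 1 base, was detected.

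The arms with the miR-92 seed both gave higher normalized values in skin, by nearly the same amount. MiR-92a-3p, the last arm of miR-17-92, is known for its action in endothelial cells and its abundance in red blood cells. It read 2122 and 1889 in skin and 2083 and 1753 in oral mucosa. Its difference was -0.53 (SD 0.22). MiR-25-3p of the other cluster read 717 and 650 in skin and 637 and 677 in oral mucosa, with a difference of -0.54 (SD 0.12). In scanner units the spots of both arms overlapped between the tissues, and they were separated by the normalization. Both values stayed below 0 in all 14 alternatives, the smallest in size being -0.06 for each, with no scaling between the arrays.

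In all, the repeat spots of the tissues did not overlap on the VSN scale for 5 of the 8 detected members, each with the higher value in skin (miR-18a-5p, miR-19b-3p, miR-92a-3p, miR-106b-5p and miR-25-3p). The spots were likewise apart, in either direction, for 67.8% of the 394 probes detected on both arrays, a like share. The share apart with the higher value in skin was not counted, so the common direction of the 5 has no share beside it. MiR-18a-5p and miR-106b-5p lay above 0 in 3 and 7 of the 14 alternative processings. Repeat spots of 1 pool do not show a difference between tissues.

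**Figure D2:**
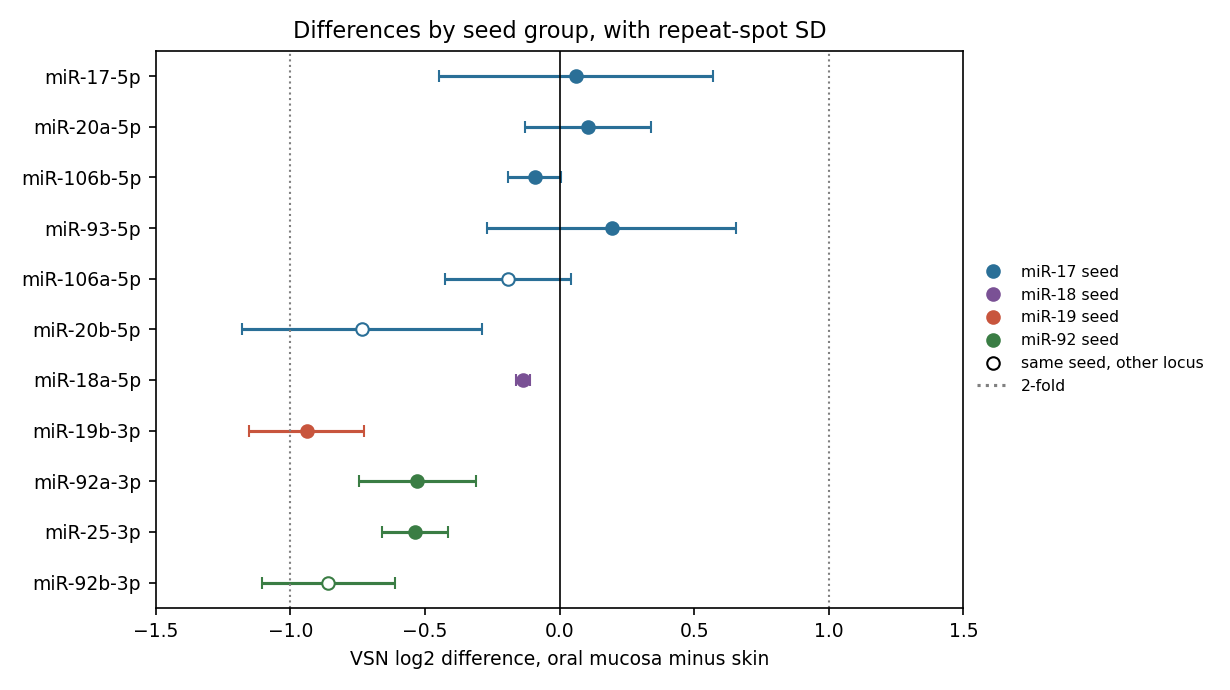
VSN log2 difference, oral mucosa minus skin, of each detected guide arm (filled) and of the detected relatives with the same seed from other loci (open), coloured by seed group, with the SD from repeat spots. The dotted lines mark a 2-fold change. The miR-17 seed members lie between -0.09 and 0.19, and miR-19b-3p at -0.94 is farthest from 0.

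Read by cluster, the medians lay close together with VSN. The median was -0.14 over the 5 detected arms of miR-17-92, with a range from -0.94 to 0.11, and -0.09 over the 3 arms of miR-106b-25, with a range from -0.54 to 0.19. The sign of these medians depended on the processing, with 3 and 7 of the 14 alternatives above 0. The miR-17-92 median minus the miR-106b-25 median was -0.04 with VSN and ran from -0.27 to 0.02 over the 15 settings. Read by seed, the groups stood apart. The median of the miR-17 seed group was 0.08 (4 arms, -0.09 to 0.19) and that of the miR-92 seed group was -0.53 (2 arms, -0.54 to -0.53), a gap of 0.62. The 7 pairs of members with the same seed differed from each other by a median of 0.13 and at most 0.29, and the 11 pairs from the same cluster with different seeds by a median of 0.59 and from 0.20 to 1.05. These pairs share members, so they are not independent and no test was made. Of the 7 same-seed pairs, 6 were within the miR-17 group, and some of these also shared a cluster. Pairs unlike in both seed and cluster were not read, so the pairs do not separate seed from cluster. The SDs of single members, up to 0.51, are of the size of the gap.

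The order of the seed groups was the same under the alternatives tried. The gap between the miR-17 and miR-92 seed groups was between 0.58 and 0.63 in the 14 alternatives. MiR-19b-3p was the lowest of the 8 in each of the 15 settings, the reported one included, and every miR-17 seed member lay above both miR-92 seed members in each of them. Many of these settings could not change the order, since a filter leaves the members' values as they are and a change of scale adds the same amount to each, and the 15 settings held 7 distinct patterns (values equal up to a constant within 0.001 counted as 1). Quantile normalization, which is not a constant shift, moved miR-25-3p from -0.54 to -0.26 and miR-92a-3p from -0.53 to -0.56. The distance between the nearest members of these groups was 0.44 with VSN and shrank to 0.13 with the second repeat spot alone.

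**Figure D3:**
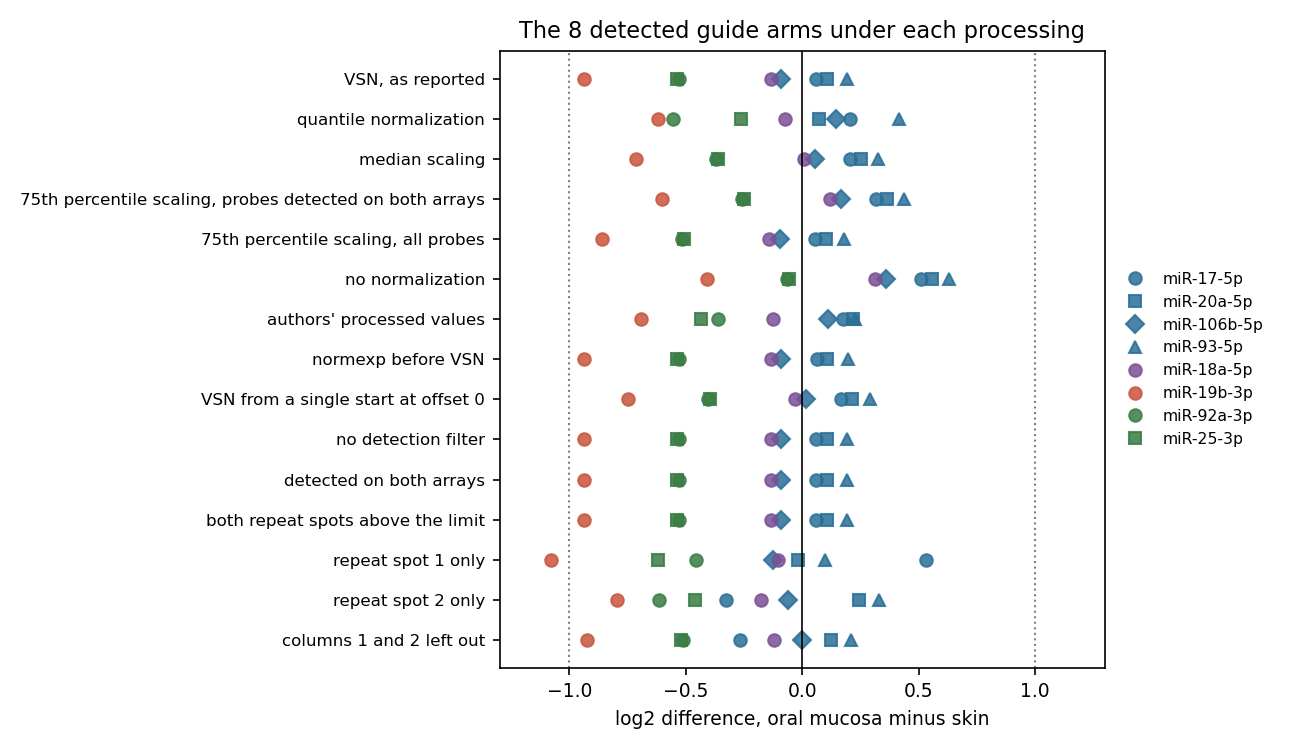
Log2 difference, oral mucosa minus skin, of the 8 detected guide arms under the reported processing (top line) and 14 alternatives, coloured by seed group as before. The dotted lines mark a 2-fold change. The plain scalings differ from one another by the same amount for all members. The reported VSN, quantile normalization and the choice of spots differ from them by unequal amounts. MiR-19b-3p is lowest on every line.

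Relatives with the same seeds from other loci were read next. They were sought only among the 1598 probes with a RefSeq mature sequence of the same name, so other sharers on the arrays may have been missed. Besides the 9 members, 8 such probes had 1 of the member seeds. Of these, 3 were detected on both arrays and 0 on a single array. MiR-106a-5p of the X-linked cluster differs from miR-17-5p by the single substitution U10A (the base of miR-17-5p first). It read 516 and 432 in skin and 539 and 603 in oral mucosa, with a difference of -0.19 (SD 0.23) and overlapping normalized spots. MiR-20b-5p, which differs from miR-20a-5p by U1C and U10C, read 309 and 213 in skin and 228 and 233 in oral mucosa. Its difference was -0.73 (SD 0.45), below the 4 members of the miR-17 seed group and below both members of the miR-92 group. The separation of the seed groups among the members therefore did not extend to every relative.

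MiR-92b-3p, a miR-92 seed arm from chromosome 3 that is 3 edits from miR-92a-3p, read 923 and 826 in skin and 746 and 612 in oral mucosa, with all skin spots above all oral mucosa spots. Its difference was -0.86 (SD 0.25), on the same side as both miR-92 seed members. The 5 remaining seed sharers, miR-18b-5p, miR-363-3p, miR-32-5p, miR-367-3p and miR-6383, were detected on neither array. MiR-18b-5p, at 46.6 in skin and 52.0 in oral mucosa, differs from the detected miR-18a-5p by A18U and A20U. Whether the detected relatives and members read each other's RNA in part was not tested.

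The X-linked cluster as a whole was seen little. Of its 10 arms with probes of their own, 2 were detected on both arrays, miR-106a-5p and miR-20b-5p, and 8 on neither. Those 8 read between 33.4 and 46.6 in skin and between 44.6 and 57.7 in oral mucosa.

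The other arms of the 9 hairpins, the strands that are mostly discarded, were near background in both tissues. Of the 9, 7 were detected on neither array, at 33.4 to 51.9 in skin and 43.5 to 63.9 in oral mucosa. MiR-17-3p was detected in oral mucosa alone, with spots of 77.53 and 82.45 and a difference of 0.15 (SD 0.15) from the lowest detected skin signal. MiR-106b-3p was detected in skin alone, with spots of 133 and 52.0. The brighter of these lay in column 1 at the edge and the dimmer was under the limit. Its difference of -1.53 from the lowest detected oral mucosa signal, past the 2-fold rule, had an SD of 1.92. It was not detected when both spots had to pass the limit.

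**Figure D4:**
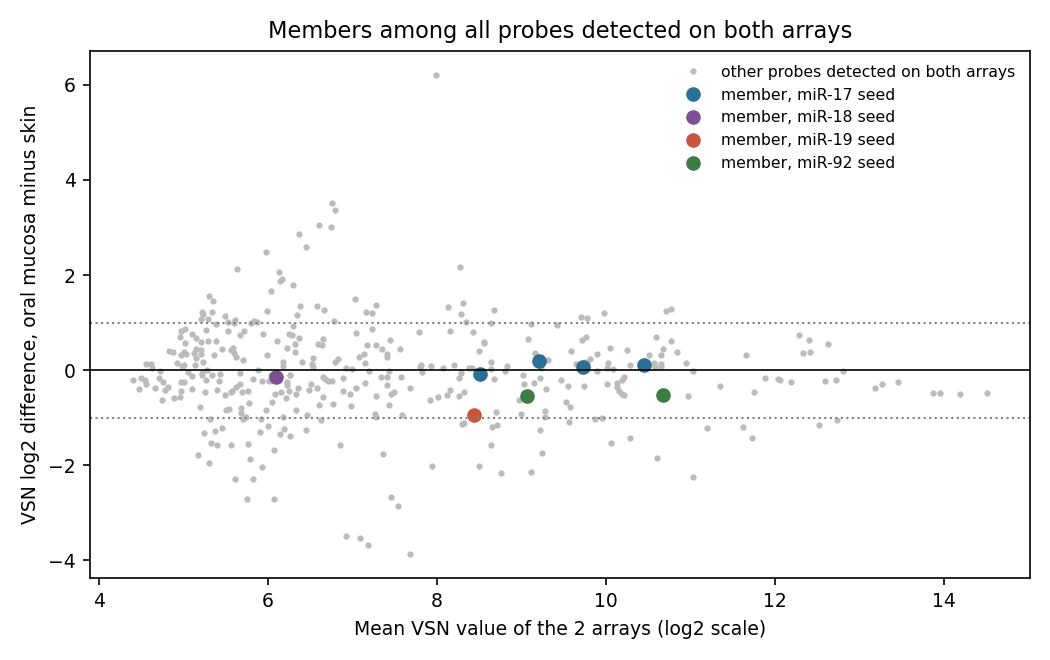
VSN log2 difference, oral mucosa minus skin, against the mean VSN value of the 2 arrays for the probes detected on both, with the 8 detected guide arms in colour by seed group. The dotted lines mark a 2-fold change. The members span mean values from 6.09 to 10.7, and none lies beyond the dotted lines.

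By signal on both arrays, the probes most like the median of the members were miR-32-3p, miR-141-3p and miR-483-5p, by Euclidean distance over the 2 VSN values (0.08, 0.12 and 0.18). Likeness over 2 arrays is a weak measure. Their differences were -0.28 (SD 0.25), -0.17 (SD 0.20) and -0.29 (SD 0.39). MiR-141-3p belongs to the epithelial miR-200 family. MiR-32-3p is the other arm of miR-32-5p, which carries the miR-92 seed and was itself under the limit.

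Some markers of other cell types differed between the arrays by more than any member. The sums below are unscaled scanner signals with background included, and the array scale ratio of oral mucosa over skin was 1.37. Of the 5 markers of mesenchyme and smooth muscle, 4 were detected in skin and 5 in oral mucosa, with summed signals of 516 and 1871 and differences from 1.01 to 2.17. For the 2 endothelial markers the sums were 81.6 and 200, with 0 and 1 detected. The dimmer skin spot of each lay in column 1 at the edge, where miR-126a-3p read 29.2, against 57.5 on its other skin spot. For the 4 skeletal muscle markers the sums were 297 and 428, with 1 and 3 detected and differences from -0.19 to 0.71. For the 2 red blood cell markers with a probe under the listed name they were 105 and 3106, of which miR-451a gave 67.3 and 3056, a difference of 6.21, while miR-144-3p was under the limit on both arrays. For the 3 white blood cell markers with a probe under the listed name they were 140 and 353, with 0 and 1 detected. The detected marker was miR-150-5p, at 50.7 in skin and 248 in oral mucosa. The probes named miR-142-3p and miR-142-5p, a form of name not on the list, were under the limit on both arrays. The part of tissue makeup in the members' differences was not tested. In pooled tissue, fewer cells of a type and less RNA per cell cannot be told apart. Base composition differed between the seed groups, with 50% to 57.1% G and C in the miR-92 members and 39.1% to 52.2% in the miR-17 members. Over the 394 probes detected on both arrays, Spearman's rho between the share of G and C and the difference was -0.03, as a description across probes that share the same arrays. The part of base composition in the gap between the seed groups was not tested.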

How the data were processed

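MicroRNAs were profiled on 2 single-colour arrays, 1 for skin and 1 for oral mucosa. The authors deposited for each array the Cy5 intensity of every spot, as the median and its spread within the spot, with no background subtracted and no scaling. They also deposited 1 processed intensity per probe and array, by a method not given in the sources used here, with medians over probes of 4 (skin) and 4 (oral mucosa) and an unknown scaling between the arrays. Groups were taken from the tissue label. Control spots were used for the detection limit and the normexp fit only, and repeat spots were averaged. VSN, the method the study names, was written in Python 3.11.15 (numpy 2.4.6, scipy 1.17.1, pandas 2.3.3), with 90% of the probes retained within the brighter of 5 bins of mean signal and the best of 4 starts taken, and was tested on simulated data. The simulation used the offsets and scale fitted to these arrays, so it checks the code and cannot choose between this fit and VSN from a single start. VSN was fitted on all 1892 probes, and gave offsets of 37.9 (skin) and 46.3 (oral mucosa) and a scale ratio of 1.37. The study's CyberT test was not run, as repeat spots share 1 pool. Where 1 array alone detected a probe, the other array entered at its own value or at the lowest detected one, whichever was higher.

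Alternatives tried were scaling to the 75th percentile, scaling to the median, quantile normalization, no scaling, the processed intensities as log2(value + 50), normexp (limma 3.58.1, R 4.3.3, offset 50) before VSN, VSN from 1 start, other filters on dim probes, single repeat spots, leaving out columns 1 and 2, and thresholds of 1.5-fold and 4-fold. The members, lists and alternatives were chosen with earlier results of these data known. The probes named besides the members were the other arms of their hairpins, the miR-106a-363 cluster, the sharers of a member seed found through RefSeq, and the 3 probes nearest to the members' median. Seeds were taken from the RefSeq tables of GRCm38.p6, which held 30 of the 32 probes of the first 4 lists, each with the sequence the array files give. Of the 1892 array probes, 1598 had a RefSeq mature sequence of the same name, and the rest were not searched for member seeds. The number of arrays limits the precision, and no depth applies to array signals.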

Additional observations from a re-analysis of the deposited data

How the results depend on the processing

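No paired analysis was possible because either tissue is represented by a single array. Of the 8 detected members, 0 passed the 2-fold rule under 14 of 16 alternatives. It was 1, miR-19b-3p, with the first repeat spot alone and at a 1.5-fold threshold. The members' count could not fall below 0, so it is not set against the count over all probes for stability. The count over all 562 detected probes also changed with the processing. It was 160 with VSN, 77 of them higher in oral mucosa, but 80 with quantile normalization (42 higher), 87 with the processed intensities (44 higher), 102 with no scaling (80 higher) and 85 with VSN from a single start (46 higher), with the median (47 higher) or with the 75th percentile of all probes (36 higher) or of those detected on both arrays (54 higher). It was 577 of 1892 with no filter and 104 of the 394 detected on both. The median of the members, -0.11, was 0.14 with scaling to the 75th percentile of probes detected on both arrays and 0.33 with no scaling between the arrays, where the median of all detected probes was 0.20 and 0.40. Under the same settings the miR-17 seed group had medians of 0.34 and 0.53, the miR-92 seed group -0.25 and -0.061, the miR-17-92 cluster 0.12 and 0.31 and the miR-106b-25 cluster 0.17 and 0.36. With quantile normalization the miR-106b-25 median was 0.14, and the cause was not tested. The sign of the overall median and of both cluster medians thus changed with the scaling, and that of the miR-106b-25 cluster also with columns 1 and 2 left out. The remaining medians moved by less than 0.22, the median repeat-spot SD of the detected members. The gaps between seed groups and between pairs were added after the data had been seen. Signal over background limits miR-18a-5p and miR-19a-3p most, which read nearest to the detection limits.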

Other observations

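MiR-32-3p, the usually discarded arm of a hairpin inside Tmem245 on chromosome 4, was detected on both arrays, while the guide arm miR-32-5p, which carries the miR-92 seed, was under the limit on both. Signals of different probes cannot be set against each other, so this gives no ratio of the arms. Whether the probe of miR-32-3p binds other RNA was not tested.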
